A study of Homo sapiens with 16 samples.

Results

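Within each treatment, a group of 31 protein-coding genes stood higher in every iE9-labelled Jurkat library than in any wild-type or dE9 library. They were chosen by their TPM, a level that divides the reads of a gene by its length and scales every library to the same sum. A member had at least 1 TPM in each of the 6 iE9 libraries. Its lowest iE9 TPM was also more than 1.5 times the highest TPM of wild-type and dE9 libraries of the same treatment, without and with PMA separately. Of 10840 protein-coding genes at that floor, 31 met the rule, or 0.286%, among 58295 genes of all classes in the table. KIR3DL2, TRAC and IL22RA2 were left out by the rule. Because these values chose the members, levels of iE9 against the other lines are a description with no test, and members are tested only for the response to PMA within a line and for dE9 against wild type. Genes of other lists, which the rule did not choose, are also tested in iE9 against each line.

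The study compared 3 genotypes of HDAC7 in JSL1 cells. These were cloned from Jurkat, an established human cell line that grew from a T cell leukemia. JSL1 with unedited HDAC7 is the wild type (WT). H7dE9 (dE9) was edited with CRISPR-Cas9 to make HDAC7 without the peptide of exon 9, and H7iE9 (iE9) to make it with that peptide. Cells were kept in growth medium (unstimulated) or given 20 ng/mL PMA, and the labels put all samples at 48 h, whereas the design text sets the untreated state at the start. WT had 2 libraries per treatment, and dE9 and iE9 had 3 each, 16 in all. The labels name no separate cultures and do not say how many clones an edited line holds. The p-values therefore measure only the spread between these libraries, and the line cannot be told apart from the clone or culture that carries it.

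HDAC7 is a class IIa histone deacetylase of T cells and their precursors. It sits on MEF2 transcription factors at genes it keeps low, and when phosphorylated it is held by 14-3-3 proteins outside the nucleus. PMA, a phorbol ester, switches on protein kinase C and so mimics part of the signal from the T cell receptor, so that genes of activated T cells can be followed in culture.

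Libraries held 14536537 to 21888896 estimated counts. Mitochondrially encoded genes took 3.0% to 6.39% of them, except in the iE9 libraries numbered 1, with 9.17% unstimulated and 12.81% with PMA. The exon 9 share was taken by TPM over only those HDAC7 transcripts that hold exon 9 or span its place without it. In unstimulated cells this share was 47.04% ± 0.63 (SD, n = 2) in WT, 3.45% ± 3.46 (SD, n = 3) in dE9 and 61.63% ± 11.9 (SD, n = 3) in iE9. With PMA it was 48.42% ± 7.55, 0.23% ± 0.39 and 49.86% ± 11.42 in the same order. The iE9 libraries with PMA lay from 42.31% to 63.0% and overlapped WT, at 43.08% to 53.76%, so the name iE9 is used here for the libraries so labelled. All 10 T cell defining markers, among them CD3E and LCK, had at least 1 TPM in every WT and iE9 library, as did 9 of 10 in unstimulated dE9 and all 10 in dE9 with PMA. The mean HDAC7 level over all its transcripts was 83.2 TPM in unstimulated iE9, 22.7 in WT and 24.0 in dE9. With PMA these means were 189, 112 and 87.9 TPM. The part of the HDAC7 level in the levels of the members was not tested. HDAC7 itself missed the rule, since its margin with PMA was 1.252, against 2.27 without. Its exon 9, the edited element, is shown from GENCODE release 29 on build GRCh38, chr12:47795906-47796016, minus strand. Of 30 annotated transcripts 5 hold it and 5 span its place without it, and the others did not enter the share.
HDAC7 exon 9: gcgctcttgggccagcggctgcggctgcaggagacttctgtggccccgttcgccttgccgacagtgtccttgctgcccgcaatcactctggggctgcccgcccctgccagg

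The margin, the lowest iE9 TPM divided by the highest TPM of the other lines, had a median of 2.1 in unstimulated cells and 1.93 with PMA. The margin was larger without PMA for 18 members and larger with PMA for 13. Only 10 members kept a margin over 2 in both treatments, namely DHRS2, ABI3, SOSTDC1, SIRPG, CCRL2, CGREF1, SNX20, RUNX2, IL21R and ANKRD44. The widest margins were 9.0 for ABI3 with PMA and 7.31 for CCRL2 without. Levels were mostly low, with a lowest iE9 TPM under 5 for 17 members and at least 10 for 10. Exchanging the lines in the same rule found 4 genes high in every WT library and 0 high in every dE9 library, and 20 genes were low in every iE9 library. The groups differ in size, so these counts are not matched.

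Just inside the rule stood SAMD3 (margins 1.5 without and 1.55 with PMA), CD79A (1.59 and 1.5), EVI2A (1.6 and 1.51) and PTCH1 (1.51 and 1.93). Just outside stood CD52, FCMR, IL12RB1 and GALNT3. CD52, a small surface glycoprotein of lymphocytes, had 9.05 and 3.76 TPM in unstimulated WT, 1.8, 12.3 and 2.5 in dE9, and 86.5, 29.9 and 32.2 in iE9. With PMA, CD52 reached 59.8 and 52.5 in WT, 70.7, 105 and 9.99 in dE9, and 320, 158 and 176 in iE9. A single dE9 library, number 2, set its limit in both treatments.
FCMR, the receptor for the Fc part of IgM, had 2.99 and 2.61 TPM in unstimulated WT, 1.05, 2.17 and 2.1 in dE9, and 7.47, 8.23 and 8.15 in iE9. With PMA, FCMR stood at 30.9 and 34.2 in WT, 10, 49.7 and 42.0 in dE9, and 122, 78.4 and 73.6 in iE9. All 3 iE9 libraries were above all others in both treatments, and only the size of the gap with PMA put FCMR outside.
IL12RB1, a chain of the receptors for IL-12 and IL-23, had 0.536 and 0.607 TPM in unstimulated WT, 1.4, 2.3 and 2.03 in dE9, and 18.9, 5.55 and 8.61 in iE9. With PMA, IL12RB1 had 3.85 and 3.73 in WT, 6.76, 11.5 and 4.66 in dE9, and 30.6, 16.8 and 20.6 in iE9. Here too dE9 number 2 was the highest of the other libraries.
GALNT3, an enzyme that starts O-linked sugar chains, had 1.15 and 1.12 TPM in unstimulated WT, 2.04, 1.83 and 0.655 in dE9, and 6.74, 2.92 and 3.05 in iE9. With PMA, GALNT3 stood at 5.04 and 2.94 in WT, 3.97, 5.55 and 3.14 in dE9, and 9.09, 10.4 and 7.94 in iE9. Its margin was 1.43 in both treatments.

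**Figure D1:**
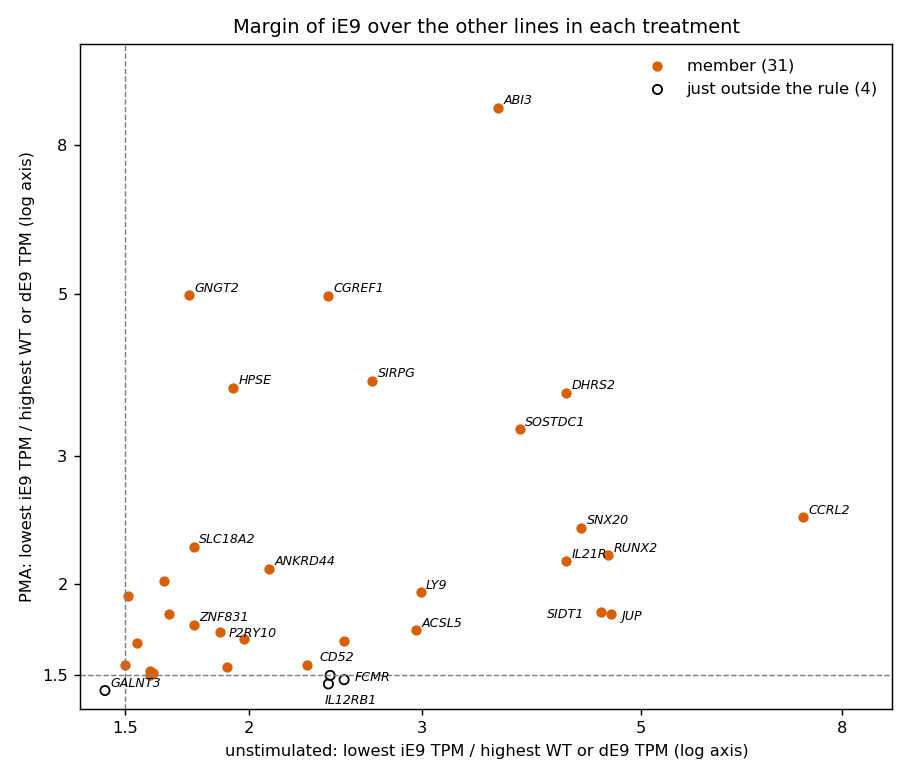
Margin of each member in unstimulated cells (horizontal, log axis) and with PMA (vertical, log axis), as the lowest iE9 TPM over the highest TPM of WT and dE9. Filled points are the 31 members, open points the 4 genes just outside, dashed lines mark 1.5, and ABI3 (9.0 with PMA) and CCRL2 (7.31 without) lie farthest out.

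**Figure D2:**
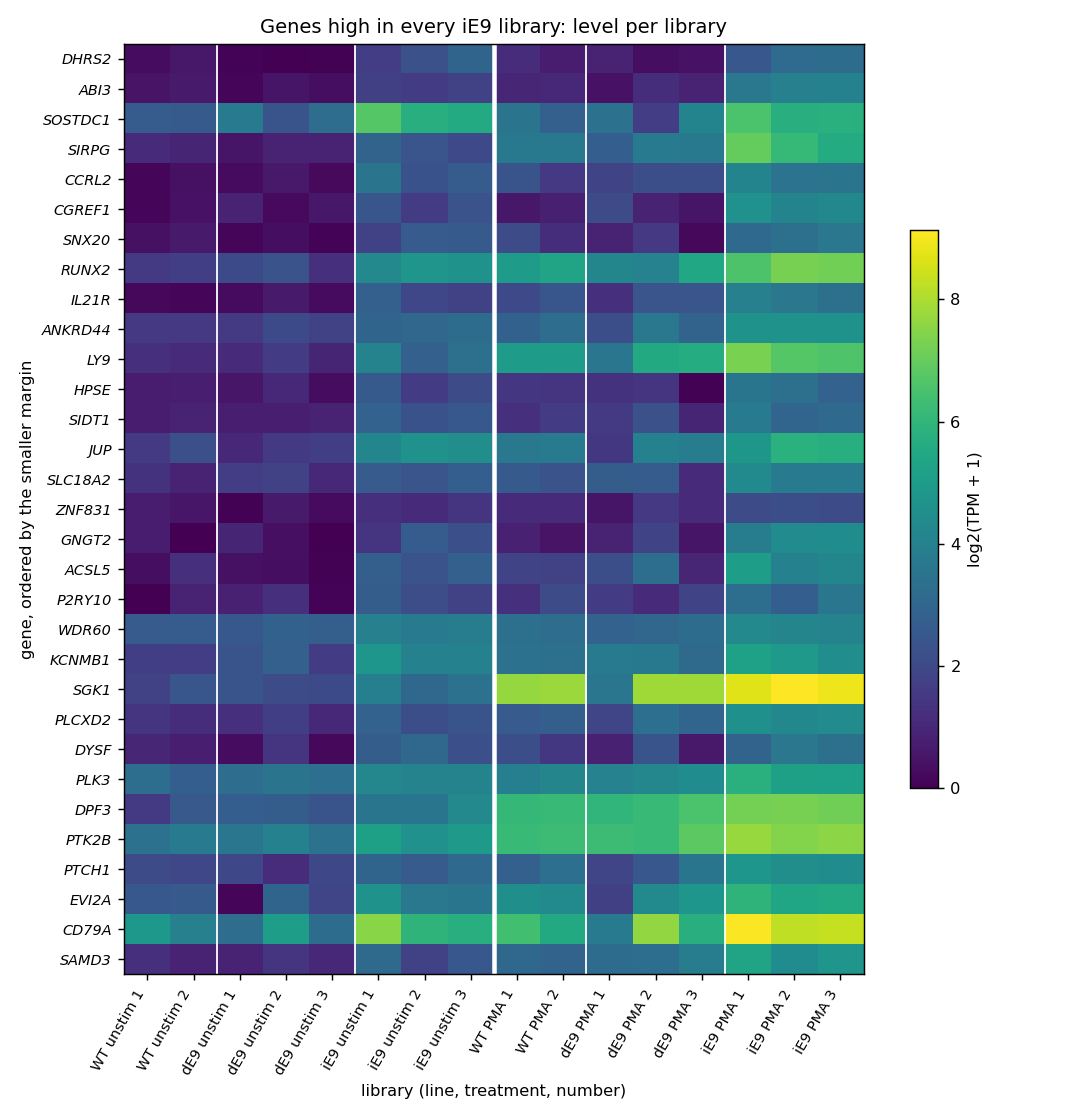
Level of the 31 members in each of the 16 libraries as log2(TPM + 1), with genes in rows by their smaller margin and libraries in columns. The 3 iE9 columns are the brightest of each treatment in every row, and most rows, such as SGK1 and DPF3, are brighter with PMA in all lines, whereas SOSTDC1 is not.

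The iE9 libraries were not even among themselves. Number 1, with the high mitochondrial share, was the highest iE9 library for 18 members without PMA and for 20 with PMA. Over all genes at the floor it was the highest for 44.3% without PMA and 30.7% with PMA. Without both iE9 libraries numbered 1, 38 genes met the rule. Leaving out libraries can only add genes to it, so the part of this library in the levels was not tested. In the other lines, dE9 number 2 was the highest library for 17 members without PMA and for 12 with PMA.

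Promoter windows from RefSeq (build GRCh38.p14, 250 bases before to 50 after a start) matched 21 members by gene identifier, symbol or synonym. No window was matched for ABI3, EVI2A, GNGT2, LY9, PLCXD2, PTK2B, SIRPG, SNX20, SOSTDC1 and ZNF831. Motifs were searched on both strands, and none of those spelled out contains another. The RUNX motif TGTGGT was found for 6 of 21 members (28.6%), namely CCRL2, CD79A, IL21R, P2RY10, RUNX2 and SAMD3, and for 14.5% of 15843 protein-coding genes. The E-box CAGCTG was found for 9 of 21 (42.9%) and for 22.7% of all genes, and the TATA box TATAAA for 4 (19.0%) and 12.4%. AGATAA, the GATA motif, was found for 3 members (14.3%) and for 10.2% of genes. AP-1 TGANTCA occurred in 1 member, RUNX2, against 8.04% of genes, and the cyclic AMP response element TGACGTCA in 1, SLC18A2, against 3.0%. The ETS motif CCGGAAG occurred in 0 of 21 members and in 16.5% of genes, and the MEF2 motif in 1 member, PTCH1, and in 0.644%. A match is a run of letters, not a measured site. A gene counted if any of its windows matched. Members had more windows per gene, 37 for 21 genes against 22199 for 15843, so the shares are not matched for this. The median GC content was 57.0% in 37 member windows and 62.3% in 22199 windows of all genes.

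The bases before the start are shown for 3 members with the RUNX motif, since RUNX2, a factor that binds it, is itself a member. PTCH1 is shown for its MEF2 match, MEF2 being the partner of HDAC7, and DHRS2 for its TATA box and its lack of CpG. Capitals mark the named motif, read as ACCACA where it lies on the other strand, and stretches end before any annotated exon.
RUNX2, RUNX motif, chr6:45328080-45328156, plus strand: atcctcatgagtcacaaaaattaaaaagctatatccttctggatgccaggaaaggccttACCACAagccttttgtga
IL21R, RUNX motif, chr16:27427021-27427243, plus strand: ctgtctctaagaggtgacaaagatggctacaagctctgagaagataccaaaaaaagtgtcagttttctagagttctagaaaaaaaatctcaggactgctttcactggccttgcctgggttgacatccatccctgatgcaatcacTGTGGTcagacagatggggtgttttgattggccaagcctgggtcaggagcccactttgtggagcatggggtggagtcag
CD79A, RUNX motif, chr19:41877029-41877119, plus strand: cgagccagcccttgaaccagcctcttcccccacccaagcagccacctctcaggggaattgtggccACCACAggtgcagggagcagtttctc
PTCH1, MEF2 motif, chr9:95509267-95509516, minus strand: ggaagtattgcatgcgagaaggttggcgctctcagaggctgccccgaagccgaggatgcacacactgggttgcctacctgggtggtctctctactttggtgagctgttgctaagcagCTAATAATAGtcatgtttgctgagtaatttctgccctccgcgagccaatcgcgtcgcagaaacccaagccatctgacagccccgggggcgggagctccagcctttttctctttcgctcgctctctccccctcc
DHRS2, TATA box, chr14:23629865-23630114, plus strand: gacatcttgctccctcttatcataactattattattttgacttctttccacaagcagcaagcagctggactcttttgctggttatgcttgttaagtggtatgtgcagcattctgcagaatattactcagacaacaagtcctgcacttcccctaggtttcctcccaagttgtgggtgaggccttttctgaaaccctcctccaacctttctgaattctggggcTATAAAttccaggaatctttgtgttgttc
The TATA box of DHRS2 lies 29 to 24 bases before the start, and the MEF2 match of PTCH1 133 to 124 bases before.

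Surface receptors formed 7 of the members: SIRPG, CCRL2, IL21R, LY9, P2RY10, CD79A and PTCH1. Their mean iE9 level was 2.07 to 33.1 times that of WT without PMA and 3.07 to 6.7 times with PMA. IL21R, the receptor chain for the T cell cytokine IL-21 (chr16:27402162-27452042), had 0.134 and 0.0919 TPM in unstimulated WT, 0.215, 0.564 and 0.206 in dE9, and 5.98, 2.83 and 2.37 in iE9. With PMA, IL21R rose in level to 3.08 and 4.38 in WT, 1.36, 4.33 and 4.32 in dE9, and 14.6, 11.2 and 9.42 in iE9. Unstimulated iE9 cells thus had the same mean IL21R level as WT cells with PMA, 3.73 TPM in each. The fold of iE9 over WT went from 33.1 without PMA to 3.14 with it.
CCRL2, an atypical chemokine receptor that binds chemerin (chr3:46407163-46412997), had 0.108 and 0.345 TPM in unstimulated WT, 0.205, 0.537 and 0.168 in dE9, and 10.4, 3.93 and 5.37 in iE9. With PMA, CCRL2 stood at 4.12 and 1.83 in WT, 2.63, 3.59 and 3.55 in dE9, and 16.6, 10.2 and 10.4 in iE9. It rests on few reads at the low end, with 9 estimated counts in all of unstimulated WT.
SIRPG, a receptor on T cells for CD47 (chr20:1629152-1657779), had 1.12 and 0.931 TPM in unstimulated WT, 0.422, 0.889 and 0.83 in dE9, and 6.44, 4.29 and 3.0 in iE9. With PMA, SIRPG stood at 12.0 and 12.0 in WT, 5.65, 12.7 and 11.9 in dE9, and 124, 68.7 and 48.1 in iE9. For SIRPG the fold of iE9 over WT was larger with PMA, 6.7 against 4.45.
LY9, a SLAM family receptor also called SLAMF3 (chr1:160796074-160828261), had 1.38 and 1.14 TPM in unstimulated WT, 1.18, 2.0 and 0.944 in dE9, and 15.9, 5.99 and 9.48 in iE9. With PMA, LY9 stood at 31.7 and 32.5 in WT, 10.9, 45.5 and 49.5 in dE9, and 155, 105 and 96.6 in iE9. Among the dE9 libraries with PMA, number 1 was low for LY9.

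CD79A, the signalling chain Ig-alpha of the B cell receptor (chr19:41877120-41881372), had the highest floor of all members. Unstimulated levels of CD79A were 28.4 and 14.9 TPM in WT, 8.66, 32.6 and 8.31 in dE9, and 182, 60 and 51.9 in iE9. With PMA, CD79A stood at 81.9 and 45.3 in WT, 12.3, 202 and 53.4 in dE9, and 538, 304 and 323 in iE9. The 3 dE9 libraries spread widely, and dE9 number 2 alone set the limit in both treatments. The other 11 B cell markers summed to 5.1 to 16.2 TPM in unstimulated iE9 and 15.1 to 22.2 in WT, and to 7.56 to 8.8 and 10.8 to 12.4 with PMA. In dE9 they summed to 7.36 to 25.2 TPM and with PMA to 9.35 to 26.8, so the sum in iE9 overlapped dE9 without PMA and lay below it with PMA. EBF1, a transcription factor of B cell development, went against the sum, at 4.07, 1.8 and 2.14 TPM in unstimulated iE9 and at most 1.79 in the other lines. With PMA, EBF1 had 3.74, 6.12 and 5.15 TPM in iE9 and at most 2.91 in the other lines. CD79B also went against the sum without PMA, at 4.62, 3.18 and 0.36 TPM in iE9 and at most 0.13 in the other lines. With PMA, CD79B had 1.05, 0.15 and 0.07 TPM in iE9 and up to 2.49 in the others. IGLL1 made up 17.05 and 8.32 TPM of the unstimulated WT sums and at most 0.74 in iE9. Of 5 other B cell markers tested, 1 was higher in iE9 than in dE9 without PMA and 0 than in WT. The part of these markers in the level of CD79A was not tested. In iE9, CD22 and VPREB1 were listed at 0.
PTCH1, the receptor for hedgehog ligands (chr9:95442980-95517057), had 3.37 and 2.88 TPM in unstimulated WT, 2.92, 1.24 and 2.9 in dE9, and 6.7, 5.1 and 7.65 in iE9. With PMA, PTCH1 stood at 5.97 and 9.09 in WT, 2.73, 4.63 and 10.8 in dE9, and 27.0, 21.6 and 20.8 in iE9. P2RY10, a G protein-coupled receptor for lysophosphatidylserine, ran from 0 to 1.32 TPM in unstimulated WT and dE9 and from 2.48 to 5.51 in iE9. With PMA, P2RY10 ran from 1.19 to 3.29 and from 5.64 to 11.

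Of the secreted proteins, SOSTDC1, CGREF1 and HPSE were members, with mean iE9 levels 5.06 to 14.2 times WT without PMA. SOSTDC1, a secreted antagonist of BMP and WNT ligands (chr7:16461481-16530580), had 5.25 and 4.96 TPM in unstimulated WT, 12.4, 4.23 and 8.6 in dE9, and 105, 52.1 and 47.0 in iE9. With PMA, SOSTDC1 stood at 10.4 and 5.94 in WT, 9.7, 2.18 and 16.5 in dE9, and 93.0, 53.9 and 55.3 in iE9. The iE9 libraries held nearly the same SOSTDC1 level in both treatments, 68.0 ± 32.1 and 67.4 ± 22.1 TPM (SD, n = 3).
CGREF1, a secreted protein with EF-hand motifs (chr2:27098889-27119115), had 0.131 and 0.359 TPM in unstimulated WT, 0.821, 0.184 and 0.517 in dE9, and 4.42, 1.98 and 4.04 in iE9. With PMA, CGREF1 stood at 0.519 and 0.743 in WT, 3.29, 0.899 and 0.415 in dE9, and 23.4, 16.3 and 18.2 in iE9. The mean with PMA was 30.6 times that of WT, the widest such fold of the members, and CGREF1 shares exonic bases with KHK on the opposite strand.
HPSE, heparanase, which cuts heparan sulfate chains (chr4:83292461-83335153), had 0.668 and 0.701 TPM in unstimulated WT, 0.473, 1.06 and 0.237 in dE9, and 4.97, 2.05 and 3.38 in iE9. With PMA, HPSE stood at 1.69 and 1.57 in WT, 1.54, 1.56 and 0.0413 in dE9, and 10.6, 9.25 and 6.29 in iE9. The dE9 library numbered 3 was almost without HPSE transcript with PMA.

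Signalling and cytoskeletal proteins formed 7 members: ABI3, GNGT2, PTK2B, SGK1, PLK3, ANKRD44 and PLCXD2. ABI3, an adaptor of the WAVE complex that drives actin branching, and GNGT2, a gamma subunit of heterotrimeric G proteins, are neighbours on chromosome 17. ABI3 lies on the plus strand at chr17:49210227-49223225 and GNGT2 on the minus strand at chr17:49202791-49210574, so they share bases at their starts, 347 bases apart. Unstimulated levels of ABI3 were 0.41 and 0.563 TPM in WT, 0.0924, 0.417 and 0.253 in dE9, and 2.35, 2.01 and 2.5 in iE9. With PMA, ABI3 stood at 0.964 and 1.08 in WT, 0.369, 1.27 and 0.86 in dE9, and 11.5, 14.7 and 15.3 in iE9. Both the margin and the fold over WT of ABI3 were wider with PMA, the fold going from 4.71 to 13.5.
Unstimulated levels of GNGT2 were 0.675 and 0 TPM in WT, 0.936, 0.306 and 0 in dE9, and 1.63, 5.28 and 3.64 in iE9. With PMA, GNGT2 stood at 0.803 and 0.399 in WT, 0.875, 2.69 and 0.438 in dE9, and 13.4, 20.2 and 20.6 in iE9. The pattern was that of ABI3, but without a stated strand the reads of this overlapping pair cannot be fully told apart, and unstimulated WT held 6 estimated counts of GNGT2 in all.

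PTK2B, the focal adhesion kinase PYK2 on chromosome 8, had 9.97 and 12.1 TPM in unstimulated WT, 11, 15 and 9.99 in dE9, and 35.8, 23.9 and 30.1 in iE9. With PMA, PTK2B stood at 70.8 and 75.2 in WT, 76.7, 69.6 and 112 in dE9, and 208, 171 and 188 in iE9. The libraries of each group lay close together, and iE9 was 2.71 and 2.59 times WT.
SGK1, a kinase downstream of PI3K that acts on ion transport and survival, had 2.38 and 4.5 TPM in unstimulated WT, 4.17, 3.2 and 3.16 in dE9, and 14.3, 7.48 and 9.79 in iE9. With PMA, SGK1 stood at 203 and 217 in WT, 11.1, 227 and 225 in dE9, and 413, 561 and 478 in iE9. The dE9 library numbered 1 was about as low in SGK1 as unstimulated iE9 cells. That library was the lowest of the 8 libraries with PMA for 14 members, and for 23.5% of all genes at the floor. Without both dE9 libraries numbered 1, an alternative chosen after seeing the data, 41 genes met the rule, which leaving out libraries can only widen.
PLK3, a polo-like kinase of the stress response, had 8.96 and 5.63 TPM in unstimulated WT, 8.52, 10.3 and 9.12 in dE9, and 17.7, 15.8 and 15.9 in iE9. With PMA, PLK3 stood at 14.3 and 17.0 in WT, 15.7, 17.6 and 20.7 in dE9, and 54.3, 35.4 and 34.5 in iE9. ANKRD44, a regulatory subunit of protein phosphatase PP6, had the most even iE9 levels with PMA.
Unstimulated levels of ANKRD44 were 1.85 and 1.87 TPM in WT, 1.94, 3.18 and 2.51 in dE9, and 6.67, 7.1 and 8.35 in iE9. With PMA, ANKRD44 stood at 6.14 and 8.62 in WT, 3.62, 11.6 and 6.53 in dE9, and 24.9, 24.3 and 24.4 in iE9. Its coefficient of variation over iE9 libraries with PMA was 1.4%, where the median over members was 25.4%. ANKRD44 shares exonic bases with AC013264.1 on the opposite strand, which had a mean of 6.67 TPM in iE9 and 1.23 in the other lines. Without a stated strand, reads of these 2 genes may be split between them.
PLCXD2, which carries the X domain of phospholipase C, ran from 1.06 to 2.2 TPM in unstimulated WT and dE9 and from 3.6 to 6.28 in iE9. With PMA, PLCXD2 ran from 2.75 to 9.05 and from 18.3 to 22.8.

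Nuclear regulators were RUNX2, DPF3 and ZNF831. RUNX2, a RUNX transcription factor known from bone and from T cell precursors (chr6:45328157-45664349), had 1.95 and 2.23 TPM in unstimulated WT, 3.15, 4.0 and 1.4 in dE9, and 18.5, 26.4 and 25.1 in iE9. With PMA, RUNX2 stood at 32.5 and 39.0 in WT, 17.4, 15.5 and 43.8 in dE9, and 95.8, 152 and 145 in iE9. Here iE9 number 1 was the lowest of the iE9 libraries in both treatments. The fold of iE9 over WT was 11.2 without PMA and 3.67 with it.
The most abundant RUNX2 transcript in iE9, RUNX2-208, is annotated as not coding. It made up 41.9% of RUNX2 TPM in unstimulated iE9 and 46.8% with PMA, against 12.0% and 36.9% in WT and 10.1% and 21.6% in dE9. These shares come from the authors' estimates per transcript, and single libraries of unstimulated iE9 ran from 24.8% to 51.6%.
DPF3, a subunit of the BAF chromatin remodelling complex that reads acetylated histones, had 1.93 and 4.79 TPM in unstimulated WT, 5.64, 5.52 and 4.23 in dE9, and 10.8, 10.7 and 18.8 in iE9. With PMA, DPF3 stood at 66.9 and 70.9 in WT, 63.8, 72.1 and 92.2 in dE9, and 150, 154 and 142 in iE9. ZNF831, a zinc finger protein, had the lowest iE9 floor of the members, at 0.0505 to 0.635 TPM in unstimulated WT and dE9 and 1.11 to 1.65 in iE9. With PMA, ZNF831 ran from 0.431 to 1.89 and from 3.33 to 3.62.

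Proteins of junctions, membranes, transport and metabolism formed 9 members: JUP, DYSF, SNX20, SIDT1, SLC18A2, KCNMB1, ACSL5, DHRS2 and WDR60. DHRS2, a short-chain dehydrogenase and reductase known to rise in cells given histone deacetylase inhibitors (chr14:23630115-23645639), had the widest smaller margin, 3.66. Unstimulated levels of DHRS2 were 0.227 and 0.512 TPM in WT, 0.0593, 0 and 0.0488 in dE9, and 2.15, 3.86 and 6.77 in iE9. With PMA, DHRS2 stood at 1.248 and 0.661 in WT, 0.831, 0.256 and 0.352 in dE9, and 4.57, 8.04 and 8.37 in iE9. Unstimulated dE9 cells held 3 estimated counts of DHRS2 in all against 275 in iE9, a contrast that the rule used. DHRS2 was lowest in iE9 number 1 in both treatments, as were SNX20, RUNX2, JUP and GNGT2.
JUP, plakoglobin, a protein of desmosomes and adherens junctions (chr17:41754604-41786931), had 1.92 and 3.72 TPM in unstimulated WT, 1.08, 1.93 and 2.25 in dE9, and 17.3, 25 and 22 in iE9. With PMA, JUP stood at 11.6 and 12.9 in WT, 1.76, 15.1 and 13.5 in dE9, and 27.4, 56.4 and 52.1 in iE9. Every unstimulated iE9 library was above every WT and dE9 library with PMA.
SNX20, a sorting nexin that binds the selectin ligand PSGL-1 (chr16:50666300-50681353), had 0.322 and 0.566 TPM in unstimulated WT, 0.084, 0.252 and 0.0513 in dE9, and 2.47, 5.13 and 5.07 in iE9. With PMA, SNX20 stood at 3.23 and 1.31 in WT, 0.821, 1.89 and 0.141 in dE9, and 7.72, 9.46 and 11.3 in iE9. The dE9 libraries spread more than 10-fold with PMA, number 3 being the lowest.
SIDT1, a membrane protein linked to RNA uptake (chr3:113532296-113629578), had 0.656 and 0.84 TPM in unstimulated WT, 0.69, 0.695 and 0.877 in dE9, and 6.24, 3.99 and 4.75 in iE9. With PMA, SIDT1 stood at 1.41 and 2.06 in WT, 1.93, 3.8 and 0.909 in dE9, and 12.9, 6.97 and 7.65 in iE9. WT and dE9 lay close together for SIDT1 without PMA.
KCNMB1, the beta subunit of a calcium-activated potassium channel, had 2.21 and 2.19 TPM in unstimulated WT, 4.13, 6.02 and 2.09 in dE9, and 27.1, 15.3 and 15 in iE9. With PMA, KCNMB1 stood at 9.76 and 9.36 in WT, 12.6, 12.0 and 8.01 in dE9, and 36.9, 29.2 and 21.1 in iE9. Again the unstimulated iE9 libraries exceeded the other lines with PMA.
WDR60, an intermediate chain of the ciliary motor dynein-2, had 5.15 and 5.38 TPM in unstimulated WT, 4.7, 6.22 and 5.76 in dE9, and 14.9, 12.3 and 13.7 in iE9. With PMA, WDR60 stood at 9.47 and 8.66 in WT, 6.36, 7.02 and 8.31 in dE9, and 18.9, 16.9 and 15.9 in iE9. Of all members it had the smallest fold of iE9 over WT with PMA, 1.9.
SLC18A2, the vesicular monoamine transporter VMAT2, ran from 0.87 to 2.42 TPM in unstimulated WT and dE9 and from 4.26 to 5.6 in iE9, and with PMA from 1.11 to 5.41 and from 12.2 to 19.9. ACSL5, which couples long fatty acids to coenzyme A, ran from 0.0253 to 1.36 and from 4.01 to 5.92, and with PMA from 0.959 to 8.81 and from 15.3 to 33.7. DYSF, dysferlin, a membrane repair protein, ran from 0.133 to 1.58 and from 3.64 to 7.21, and with PMA from 0.543 to 4.13 and from 6.42 to 11.3. For each of these 3 genes the ranges of iE9 and of the other lines lay apart, as the rule requires.

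EVI2A and SAMD3 are little described. EVI2A, a transmembrane protein encoded inside an intron of NF1 on its opposite strand (chr17:31317560-31321884), had 4.65 and 5.04 TPM in unstimulated WT, 0.106, 6.61 and 2.77 in dE9, and 24.7, 11.5 and 10.6 in iE9. With PMA, EVI2A stood at 22.3 and 19.9 in WT, 2.35, 19.4 and 26.8 in dE9, and 59.9, 40.4 and 45.9 in iE9. Number 1 was the lowest dE9 library in both treatments. EVI2A shares annotated exonic bases with NF1, which had a mean of 16.4 TPM in iE9 and 15.9 in the other lines. Without a stated strand, reads of EVI2A and NF1 may be split between them.
SAMD3, which carries a SAM domain (chr6:130144315-130365425), had 1.39 and 0.867 TPM in unstimulated WT, 0.825, 1.62 and 1.06 in dE9, and 8.01, 2.43 and 4.55 in iE9. With PMA, SAMD3 stood at 7.44 and 6.42 in WT, 8.27, 8.78 and 13.4 in dE9, and 39.8, 20.7 and 25.9 in iE9. Its same-strand neighbour AL355581.1 shares exonic bases with it, so their reads may be split between them.

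**Figure D3:**
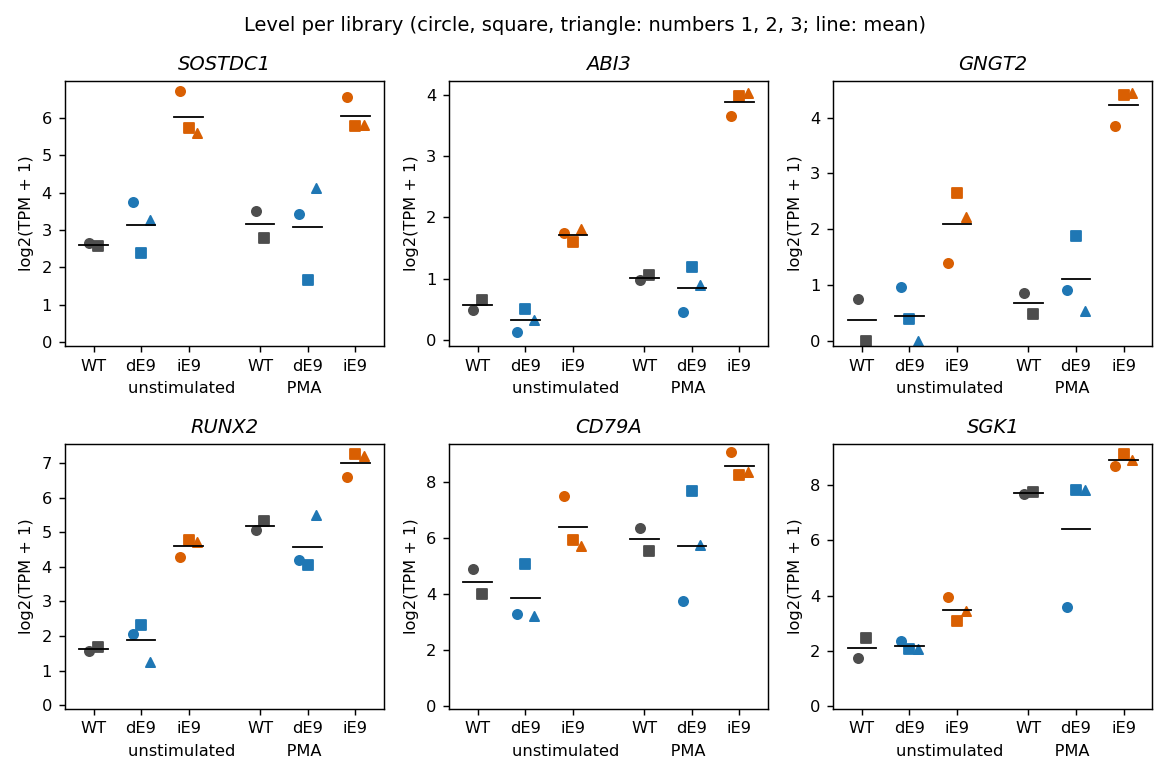
Level in each library as log2(TPM + 1) for 6 members, with the 3 lines side by side, unstimulated on the left of each panel and with PMA on the right, and a line at the mean of the log2 values. SOSTDC1 held its level with PMA in iE9, ABI3 and GNGT2 were far higher in iE9 with PMA than without, and SGK1 was low in the dE9 PMA library numbered 1 (11.1 TPM).

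Between 17 and 22 of the 31 members rose with PMA in each line, and 6 passed the test in none. All 31 passed the filter on low counts, and 17 of 31 (54.8%) rose in WT by edgeR's quasi-likelihood test with Benjamini-Hochberg adjustment over 18073 genes, where 11.1% of all genes rose. None of the 31 fell, and all 31 had a positive fold, with a median log2 fold of 1.83 against 0.03 over all genes tested. In dE9, 22 of 31 (71.0%) rose and 0 fell, with a median of 2.05, against 17.1% and 0.06 over all genes. In iE9, 17 of 31 (54.8%) rose and 0 fell, with a median of 1.5, against 12.6% and -0.01. Among protein-coding genes at the floor, 12.3%, 18.5% and 14.6% rose in WT, dE9 and iE9. All 3 lines called 13 members higher (41.9%), and 9.31% of genes at the floor. DESeq2 called 20, 25 and 18 members higher in WT, dE9 and iE9, and limma voom 14, 17 and 20. The WT count rests on 4 libraries: it was 7 without unstimulated number 1, 10 without unstimulated number 2, and 9 without either PMA library. TPM ranges with and without PMA did not overlap, all higher with PMA, for 30 members in WT (39.9% of genes at the floor), 17 in dE9 (21.4%) and 26 in iE9 (24.0%). Ranges lay apart and lower with PMA for 0 members, against 35.6%, 26.9% and 18.8% of genes at the floor.

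By role, 5, 6 and 7 of 7 signalling genes rose in WT, dE9 and iE9, and 5, 6 and 4 of 7 surface receptors. Of the 3 secreted proteins 0, 0 and 1 rose. The differences between roles were not tested. SGK1 rose the most, by a log2 fold of 5.94 ± 0.92 (SE) in WT (edgeR adjusted p = 0.000626), 5.77 ± 0.75 in dE9 (adjusted p = 6.62e-05) and 5.13 ± 0.71 in iE9 (adjusted p = 0.000149). LY9 rose by 4.33 ± 0.66 in WT (edgeR adjusted p = 0.000576), 4.6 ± 0.54 in dE9 (adjusted p = 3.24e-05) and 3.3 ± 0.48 in iE9 (adjusted p = 0.00022). DPF3 likewise rose in all 3 lines, by 3.97 ± 0.39, 3.75 ± 0.31 and 3.32 ± 0.31 (edgeR adjusted p = 2.35e-05, 2.86e-06 and 7.24e-06). In WT, IL21R rose by 5.13 ± 0.71 (edgeR adjusted p = 0.000292) and RUNX2 by 3.84 ± 0.53 (adjusted p = 0.00029). In dE9, ACSL5 rose by 4.27 ± 0.78 (edgeR adjusted p = 0.000871) and SIRPG by 3.43 ± 0.44 (adjusted p = 6.46e-05). In iE9, SIRPG rose by 3.88 ± 0.41 (edgeR adjusted p = 1.86e-05) and PTK2B by 2.51 ± 0.19 (adjusted p = 1.92e-06).
PTK2B had nearly the same response in WT and dE9, 2.59 ± 0.24 and 2.54 ± 0.2. SAMD3, ANKRD44, PLCXD2, PLK3 and PTCH1 also rose in all 3 lines, with log2 folds from 0.86 for PLK3 in WT to 3.16 for SAMD3 in dE9.

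In 6 members, SOSTDC1, HPSE, SIDT1, P2RY10, WDR60 and DYSF, no line passed the test. SOSTDC1 had log2 folds of 0.6 ± 0.69 in WT, 0.15 ± 0.55 in dE9 and -0.19 ± 0.53 in iE9 (edgeR adjusted p = 0.575, 0.86 and 0.831). With the library number as a block, which pairs libraries within dE9 and iE9, calls were gained and none were lost. In dE9 the count became 27, adding SIDT1 (edgeR adjusted p = 0.0203), WDR60 (0.0452), DYSF (0.000619), CGREF1 (0.0281) and SLC18A2 (0.0225). In iE9 it became 24, adding SIDT1 (edgeR adjusted p = 0.00659), CD79A (0.00118), ZNF831 (0.0015), EVI2A (0.00335), DYSF (0.0221), SNX20 (0.0493) and HPSE (0.00853). SOSTDC1 and P2RY10 passed in no line with or without the block.

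Side by side, the iE9 response was below that of both other lines for 18 members, above both for 8 and between them for 5. IL21R, for example, had 5.13 ± 0.71 in WT, 3.18 ± 0.49 in dE9 and 1.5 ± 0.44 in iE9. CCRL2 had 3.26 ± 0.72, 3.23 ± 0.56 and 0.93 ± 0.48, and KCNMB1 2.02 ± 0.5, 1.39 ± 0.39 and 0.47 ± 0.38. ABI3 went the other way, with 0.94 ± 0.56, 1.53 ± 0.48 and 2.49 ± 0.42, as did CGREF1 with 1.46 ± 0.91, 1.64 ± 0.64 and 2.31 ± 0.58. These differences follow from the margins that chose the members, so they carry no test. The counts below, above and between the other lines were not made for other genes. Whether the members differ in this from genes in general was therefore not tested.

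**Figure D4:**
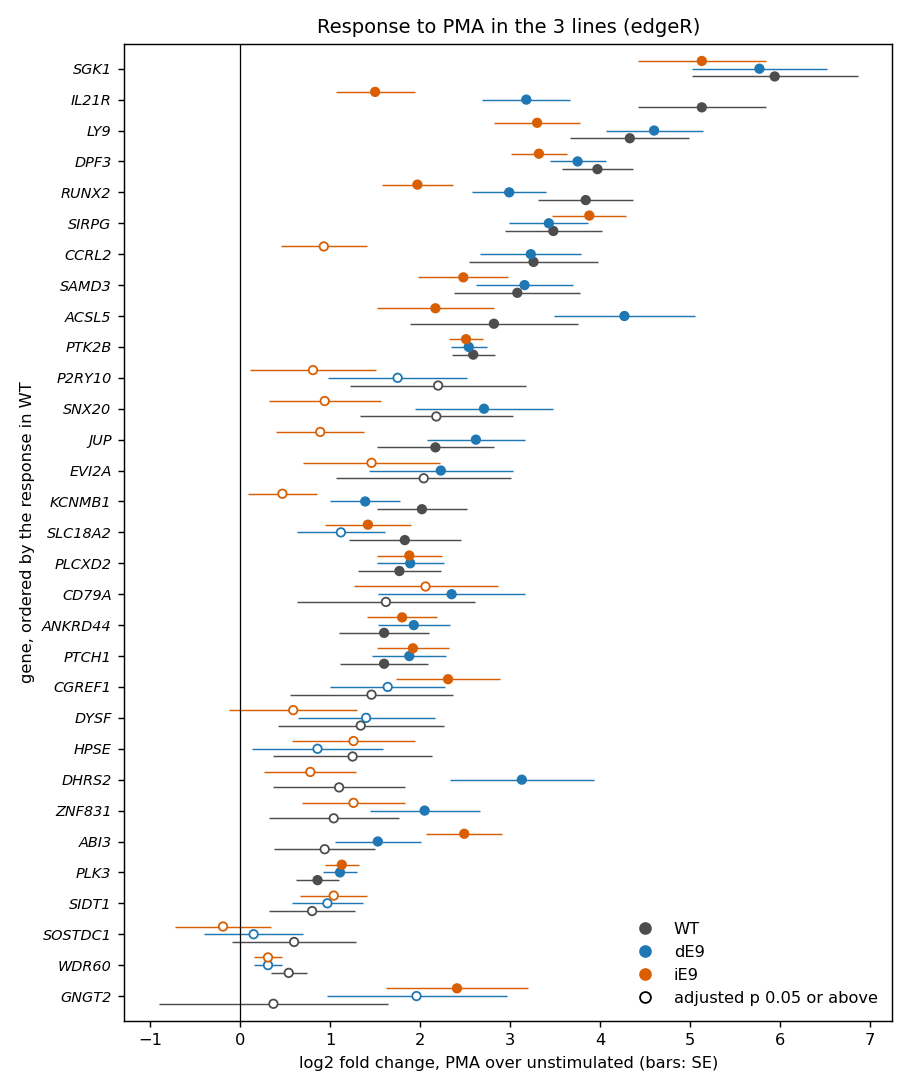
Log2 fold change of PMA over unstimulated cells for the 31 members in WT, dE9 and iE9, with bars for the SE, genes ordered by the response in WT, and open points where the edgeR adjusted p was 0.05 or above. All points lie right of 0 except SOSTDC1 in iE9 (-0.19), and IL21R and CCRL2 show the iE9 point far left of the others.

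Unstimulated iE9 cells were above the mean of PMA-treated WT cells for 19 members and below it for 12. For 12 members every unstimulated iE9 library exceeded every WT library with PMA, against 24.4% of the other genes at the floor. The rule used the levels of these same libraries, so a difference from other genes is partly built in and carries no test. The counts against the mean were not made for other genes. At one end stood SOSTDC1, with means of 68.0 TPM in unstimulated iE9 and 8.17 in WT with PMA, and at the other SGK1, with 10.5 and 210 TPM. RUNX2 had 23.3 and 35.8 TPM, LY9 10.5 and 32.1, JUP 21.4 and 12.2, and DHRS2 4.26 and 0.954. In these bulk libraries more RNA per cell and more cells with the RNA cannot be told apart.

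The 2 lines that served as the lower side of the rule did not differ from each other by the test. By edgeR, 0 of 31 members passed in dE9 against WT in either treatment, and 0.0% of all genes tested did. At an unadjusted p under 0.05 there were 2 members without PMA, against 3.1% of all genes, and 0 with PMA, against 2.54%. DESeq2 and limma voom also called 0 members in both, with 21 and 2 genes called among all without PMA and 9 and 0 with PMA. The lowest p values without PMA were those of DHRS2, which had a log2 fold of -2.93 ± 0.88 (edgeR adjusted p = 1), and IL21R, with 1.7 ± 0.7 (adjusted p = 1). With PMA they were those of CGREF1, 1.18 ± 0.71, and SNX20, -1.15 ± 0.71 (edgeR adjusted p = 1 for both). The response to PMA differed between dE9 and WT for 0 members by edgeR, with IL21R alone under an unadjusted p of 0.05, at -1.95 ± 0.85, and DESeq2 and limma voom also called 0. A p that misses the threshold does not show that dE9 and WT were alike.

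Members were spread over the genome. Chromosome 17 held 4, ABI3, GNGT2, JUP and EVI2A, or 12.9% of members against 6.4% of genes at the floor. ABI3 and GNGT2 were the only pair with starts within 500 kb. Of 213 other genes at the floor within 500 kb of a member, counted per member, 8 (3.76%) stood above every WT and dE9 library in both treatments, against 257 of 10840 (2.37%) anywhere. The 8 include ABI3 and GNGT2, each counted as the neighbour of the other, and the 257 include the members. Both shares use the margin of the rule, so they are a description and no sign of clustering. Besides that pair they were CCR1 near CCRL2, CYLD near SNX20, IL4R near IL21R, SLAMF6 near LY9, ITM2A near P2RY10 and TMEM200A near SAMD3.
Within genes, 19 of 31 members had the same most abundant transcript in all 6 groups. For GNGT2 and DPF3 the leading iE9 transcript led in only 2 of the 6 groups. That of DPF3, DPF3-202, is annotated to undergo nonsense-mediated decay and took 27.4% of the TPM in unstimulated iE9 and 24.8% in WT.

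The 33 gene lists held 4 of the members: LY9, IL21R, RUNX2 and CD79A. Of 680 other list genes tested, 28 were higher and 5 lower in iE9 than in dE9 without PMA, where 0.957% and 0.764% of all genes were called by edgeR. With PMA there were 21 higher and 17 lower, against 1.1% and 1.51%. Against WT there were 20 higher and 11 lower without PMA, against 0.675% and 0.703%, and 6 and 12 with PMA, against 0.332% and 0.791%. The lists were chosen with results of these samples known and are no independent evidence. These counts move with the choice of tool, and without both iE9 libraries numbered 1 they were 9 higher and 6 lower in iE9 against dE9 with PMA, and 9 higher and 3 lower against WT without PMA.
Beside LY9, 3 of 25 costimulatory, inhibitory and SLAM receptors were higher in iE9 than in dE9 and 2 than in WT without PMA, and 0 were lower. They include the inhibitory receptor PDCD1, with log2 folds of 4.89 ± 0.73 over dE9 (edgeR adjusted p = 0.00394) and 3.95 ± 0.81 over WT (adjusted p = 0.0296). SLAMF6, near LY9 on chromosome 1, had 1.62 ± 0.24 (edgeR adjusted p = 0.00394) and 1.33 ± 0.27 (adjusted p = 0.0296).
Beside IL21R, 5 of 38 cytokine and chemokine receptors were higher than in dE9 and 3 than in WT without PMA, and 0 were lower. CCR7, the lymph node homing receptor, had 4.98 ± 0.78 and 5.92 ± 1.03 (edgeR adjusted p = 0.00541 and 0.012), IL12RB1 2.65 ± 0.48 and 3.98 ± 0.63 (adjusted p = 0.0127 and 0.00822), and IL4R 1.62 ± 0.23 and 1.43 ± 0.26 (adjusted p = 0.00316 and 0.0158).
Beside RUNX2, 2 of 32 thymocyte factors were higher and 4 lower than in dE9, and 1 higher and 6 lower than in WT, without PMA. The list's median log2 folds were -0.16 and -0.22, and the others passed in neither direction. DNTT, the terminal transferase of receptor rearrangement, was lower by log2 folds of -5.46 ± 0.99 and -6.36 ± 1.05 (edgeR adjusted p = 0.0127 and 0.00872), and ERG, TCF7 and ETS2 were lower than in both, by -3.62 to -1.88. ID2, an inhibitor of E proteins, was higher, by 3.97 ± 0.62 and 4.03 ± 0.75 (edgeR adjusted p = 0.00541 and 0.0175). With PMA, ERG, HHEX and RAG1 were lower than in dE9 and WT, by -4.68 to -1.6. Without both iE9 libraries numbered 1, DNTT, ERG, TCF7 and ETS2 passed against neither line without PMA (edgeR adjusted p = 0.0636 to 0.129), and with the replicate block only 1 list gene in all was lower than in dE9.
In the other lists, HDAC7, CD38, ARHGAP45, ICAM3, GBP5 and TUBB3 were higher in unstimulated iE9 than in both other lines. GBP5, a guanylate-binding protein of the interferon response, had the largest of these log2 folds, 3.86 ± 0.36 over dE9 and 4.95 ± 0.47 over WT (edgeR adjusted p = 0.000168 and 0.000293). With PMA, CD82, TRPC6, ORAI2 and COL6A2 were lower in iE9 than in both. Without both iE9 libraries numbered 1, HDAC7, ARHGAP45, ICAM3, GBP5, TUBB3 and CCR7 were still higher than in both lines without PMA, and TRPC6 still lower with PMA. The other list genes named here lost the call against at least 1 line with the same direction of change. Without PMA these were CD38, PDCD1, SLAMF6, IL4R, ID2 and KLRD1 against WT, IL12RB1 against dE9, and NKG7 and the 4 thymocyte factors against both.

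Some markers of natural killer and cytotoxic cells were higher in unstimulated iE9. Of 15 tested, 3 were higher than in dE9 and 3 than in WT, and 0 were lower. Among all genes 0.957% and 0.675% were called higher. With PMA 0 passed in either direction. Only 8 of the 23 list genes had at least 1 TPM in every unstimulated iE9 library. The 23 genes summed to 96.3 to 347 TPM in unstimulated iE9, 41.1 to 76.8 in dE9 and 28.1 to 28.7 in WT, and with PMA to 335 to 762, 274 to 1260 and 426 to 526. KLRD1 and NKG7 were higher in unstimulated iE9 than in dE9, by 5.35 ± 0.89 and 3.51 ± 0.76 (edgeR adjusted p = 0.00754 and 0.0327), while TYROBP was listed at 0 in all 16 libraries. Without both iE9 libraries numbered 1, NKG7 passed against neither dE9 nor WT (edgeR adjusted p = 0.149 and 0.0916). KLRD1 then passed against dE9 but not against WT (edgeR adjusted p = 0.0396 and 0.0559). The part of these cytotoxic markers in the levels of the members was not tested.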

How the data were processed

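RNA was measured in 16 libraries of 6 groups. Per the submitters' processing notes the authors used Salmon, DESeq2 and build hg38. Their versions and the strand settings were not given in the sources used here. The authors deposited a gene table in TPM and, per library, estimated counts and TPM per transcript. All 205870 transcripts matched GENCODE release 29 (58295 genes), and sums of transcript TPM equalled the gene table. Counts were added up over each gene's transcripts and rounded to whole numbers, and 0 columns were left unused.

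Of 33304 genes with a count, 18073 passed edgeR's filter (filterByExpr). The test was edgeR's quasi-likelihood test (version 4.0.16, R 4.3.3), two-sided, with TMM scaling, all 6 groups in 1 fit and Benjamini-Hochberg adjustment over all genes at 0.05. The common biological coefficient of variation was 31.8%. DESeq2 1.42.0 and voom in limma 3.58.1 were alternatives, as were other margins and floors, leaving out libraries, and a block on the library number. The numbers paired the treatments within dE9 (correlations of deviations 0.297, 0.305 and 0.24) and iE9 (0.441, 0.226 and 0.19), but not WT (0.073). The most similar pair of libraries in a group differed by a chi-square of 7.55 per degree of freedom, so none was a duplicate. Scripts were tested on simulated data.

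The members and lists were chosen with earlier results of these data known. Values per library are given for the 14 members with the largest smaller margin, the 8 with the highest lowest iE9 TPM, the 4 with the smallest margin and 4 genes just outside. GNGT2, SGK1, DPF3 and other genes named beyond this were chosen after their values were seen. In each test the up to 5 called members with the largest folds are named, or with none called the 2 with the lowest p, and from each list up to 3 genes called against both lines.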

Additional observations from a re-analysis of the deposited data

How the results depend on the processing

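The number of members was 59 at a looser margin, 10 at a margin over 2, 14 at a floor of 5 TPM and 59 with the margin taken within library numbers (the replicate block). It was 31 to 44 when single libraries were left out, which can only add genes and so shows nothing about stability. With TMM-scaled counts per length 27 genes met the rule, all members.
Leaving out single libraries gave 7 to 18 members higher with PMA in WT, 17 to 23 in dE9 and 13 to 20 in iE9. It gave 0 in dE9 against WT. The block raised the counts to 25 in WT, 27 in dE9 and 24 in iE9, and lost no call. The 19 results of single members named by the largest fold or lowest p in a test all kept their direction and side of the threshold. Being picked that way, they were unlikely to change and say little about the other members. List genes are not among these 19. Without both iE9 libraries numbered 1, only 6 of 18 list genes without PMA and 1 of 7 with PMA stayed called against both lines.
List genes by DESeq2 were 65 higher and 22 lower in iE9 against dE9 without PMA, and 55 and 34 with PMA. Against WT they were 69 and 26, and 38 and 30. For the block and for leaving out iE9 libraries only some counts are given, and a count left out need not be 0. With the block, iE9 had 1 lower against dE9 without PMA and 38 higher with PMA. Against WT it had 10 higher without PMA, and 11 higher and 7 lower with PMA. Without both iE9 libraries numbered 1 there was 1 lower against dE9 without PMA, where list genes such as HDAC7 and GBP5 stayed higher. With PMA there were 9 higher and 6 lower against dE9. Against WT there were 9 higher and 3 lower, and 0 and 2 with PMA. The cause was not tested.
Depth limits the lowest levels: 17 members had a lowest iE9 TPM under 5, and some groups of WT and dE9 held under 10 counts of a member, as with 3 for DHRS2 in dE9. Genotype and line cannot be told apart.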
